A study of Drosophila melanogaster with 3 samples.

Results

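The cytoplasmic ribosomal protein genes of Drosophila melanogaster were followed through the binding sites of croc (crocodile, a forkhead-domain transcription factor that patterns the head of the embryo). Members were all protein-coding genes of the BDGP6.54 annotation whose symbol starts with RpL, RpS or RpLP followed by a number. There were 92 of them among 13945 protein-coding genes on 6 chromosome arms, 54 with symbols of the large and 38 with symbols of the small ribosomal subunit. A member was called bound when a peak of the conservative list of the whole series had that member's transcription start site (TSS) as its nearest protein-coding TSS, within 10 kb of the peak's summit. By this rule 39 of the 92 members were bound, by 45 of the 3650 conservative peaks, and the other 53 were unbound. The symbols leave out sta, which encodes the small-subunit protein RpSA and had no assigned conservative peak.

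The 3 samples were biological replicates 1, 2 and 3 of 1 group: whole embryos aged 0 to 18 h of a transgenic strain that carries croc fused to enhanced green fluorescent protein (eGFP). Sonicated chromatin was precipitated with an antibody against GFP and the DNA was sequenced (ChIP-seq), so the peaks belong to the tagged protein, and all cells and ages of the embryo are pooled in each. The labels do not say which sequence drives the fusion. There was no second group, and control lists were not analysed here, so the background at these promoters was not measured.

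Ribosomal proteins are made in every growing cell and in near-equal amounts, one set per ribosome, and their genes are among the most strongly transcribed. Loss of 1 copy of many of them gives the Minute phenotype of the fly, with slow development and short bristles. Their promoters mostly lack a TATA box, start transcription within a run of pyrimidines (the TCT initiator), and often hold the DNA replication-related element (DRE, bound by the factor Dref) or Motif 1 (bound by M1BP). Many ribosomal protein genes carry small nucleolar RNA (snoRNA) genes in their introns.

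Promoters of bound members are shown with those of unbound copies, to set the strongest peaks and the copies side by side. Each stretch runs 5′ to 3′ on the gene's strand from 100 bases before to 20 bases after the TSS that most annotated transcripts of the gene share, read from the Release 6 (dm6) genome of RefSeq. Capitals mark the DRE word TATCGATA, the Motif 1 word GGTCACAC, the E-box CACGTG, the forkhead word TGTTTAC or its variant forms TGTTTAT, or TATTTAC, or else TATTTAT (all on both strands), and any run of 8 or more pyrimidines that holds CTTT on the gene's strand within 20 bp of the TSS. RpS27, RpL34b, RpL23A and RpS25 had 4 of the 6 strongest member peaks. RpL27 holds a DRE word and a pyrimidine run together. RpL34a and RpL34b are copies that were both bound, while RpS5a and RpS19a were bound and their copies RpS5b and RpS19b were not.
RpS27: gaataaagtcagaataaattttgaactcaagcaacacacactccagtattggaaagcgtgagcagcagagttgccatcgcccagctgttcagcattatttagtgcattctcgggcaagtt
RpL34b: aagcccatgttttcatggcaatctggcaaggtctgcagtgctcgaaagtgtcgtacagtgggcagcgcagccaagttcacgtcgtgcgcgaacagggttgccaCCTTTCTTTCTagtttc
RpL23A: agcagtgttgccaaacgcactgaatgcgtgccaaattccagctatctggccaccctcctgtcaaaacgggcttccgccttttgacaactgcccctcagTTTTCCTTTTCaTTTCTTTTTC
RpS25: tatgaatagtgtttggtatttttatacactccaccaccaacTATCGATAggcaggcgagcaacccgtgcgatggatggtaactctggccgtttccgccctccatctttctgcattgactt
RpL27: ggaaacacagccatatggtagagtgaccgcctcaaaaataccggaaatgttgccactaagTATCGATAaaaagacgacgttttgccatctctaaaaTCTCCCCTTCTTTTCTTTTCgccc
RpL34a: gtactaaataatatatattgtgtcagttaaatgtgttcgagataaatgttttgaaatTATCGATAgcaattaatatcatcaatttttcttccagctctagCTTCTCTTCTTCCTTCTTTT
RpS5a: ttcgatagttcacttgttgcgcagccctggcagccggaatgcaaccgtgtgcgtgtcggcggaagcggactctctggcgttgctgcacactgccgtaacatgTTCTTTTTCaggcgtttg
RpS5b: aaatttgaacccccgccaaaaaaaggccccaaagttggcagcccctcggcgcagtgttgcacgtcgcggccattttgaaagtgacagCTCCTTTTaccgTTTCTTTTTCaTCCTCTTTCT
RpS19a: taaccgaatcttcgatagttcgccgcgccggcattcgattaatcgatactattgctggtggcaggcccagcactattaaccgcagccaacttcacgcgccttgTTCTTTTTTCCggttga
RpS19b: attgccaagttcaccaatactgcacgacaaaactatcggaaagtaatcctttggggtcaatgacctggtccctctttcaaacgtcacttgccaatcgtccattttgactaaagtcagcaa
These stretches lie at chr3R:25247495-25247614 (minus strand, RpS27), chr3R:9401207-9401326 (minus, RpL34b), chr3L:1668635-1668754 (minus, RpL23A), chr3R:11216268-11216387 (minus, RpS25), chr3R:25685032-25685151 (minus, RpL27), chr3R:26059248-26059367 (minus, RpL34a), chrX:17148245-17148364 (minus, RpS5a), chr3R:14901544-14901663 (minus, RpS5b), chrX:16637794-16637913 (plus, RpS19a) and chr3R:23933511-23933630 (minus, RpS19b). The summits of RpS27 (25247532), RpL23A (1668730), RpS25 (11216355), RpL27 (25685097), RpS5a (17148334) and RpS19a (16637848) fall inside them. The summits of RpL34b (9401349) and RpL34a (26059372) lie just upstream. No stretch among these 10 holds a forkhead word.

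The bound share of the members was 42.4% (39 of 92, 95% interval 32.2% to 53.1%), against 15.5% of all protein-coding genes (2166 of 13945). All 39 were bound at the promoter, with a summit within 500 bp of the TSS, against 9.34% of all protein-coding genes. Intervals for shares are exact Clopper-Pearson binomial intervals that treat genes or peaks as units. They cover counting error only. No test between gene sets was run, because the design has 1 group and genes are not replicates.

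In the thresholded lists of the single replicates, 34 members (37.0%) had an assigned peak in replicate 1, 36 (39.1%) in replicate 2 and 19 (20.7%) in replicate 3. Over all protein-coding genes the shares were 14.6% in replicate 1, 12.0% in replicate 2 and 9.50% in replicate 3. The members' share was above that of all protein-coding genes in each of the 3 replicates, with a mean of 29.7 ± 9.29 members (SD, n = 3). The lists differed in length, with 3198, 2433 and 1822 peaks, and replicate 3 had both the shortest list and the fewest members. Members took 1.22% ± 0.278 of the peaks of a replicate list (SD, n = 3). The lists carry no read counts. Sequencing depth is therefore unknown, and its part in these counts was not tested.

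**Figure D1:**
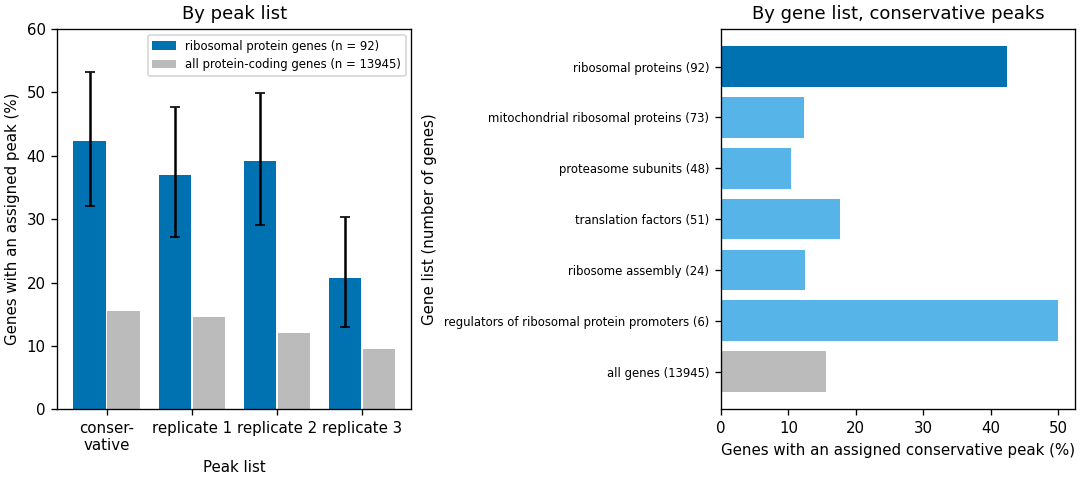
Percent of genes with an assigned peak: left, ribosomal protein genes (blue, with exact 95% intervals) and all protein-coding genes (grey) in the conservative list and in the thresholded list of each replicate; right, the conservative list only, by gene list, with the number of genes in brackets. The ribosomal protein genes lie at 42.4%, 37.0%, 39.1% and 20.7%, above the grey bar beside each, and the list of regulators holds only 6 genes.

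Of the large subunit, 25 of 54 members (46.3%) were bound, and of the small subunit 14 of 38 (36.8%). By arm, 7 of 19 members were bound on 2L, 8 of 21 on 2R, 8 of 14 on 3L, 9 of 23 on 3R and 7 of 14 on X. The single member on chromosome 4, RpS3A, was unbound. Bound members were found on 5 of the 6 arms, and the remaining arm, chromosome 4, held only RpS3A. Shares over all protein-coding genes of each arm were not computed. The counts by arm therefore describe the members only and have no background to compare with.

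Of the 5 strongest member peaks, 4 were at large-subunit genes and the second strongest at the small-subunit gene RpS27. The deposited signal value is the authors' own value per peak, on a scale that is not stated, and it is used here to rank peaks within 1 list. RpL7, a protein of the large subunit, had a signal of 496.8 and rank 395 of 3650 in the conservative list (chr2L:10200930-10201141), with its summit 26 bp downstream of the TSS. Its peak had rank 842 in replicate 1, 181 in replicate 2 and 481 in replicate 3. Another gene, Ripalpha, starts 56 bp from the same summit, so the peak lies on a promoter that the genes share.

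RpL32, also called rp49 and long used as a reference gene in fly expression studies, had a signal of 448.9 (rank 473) with its summit 123 bp upstream. In the thresholded lists it had rank 574 in replicate 1 and 340 in replicate 2. Replicate 3 held a summit within 250 bp of it, but nearer to another gene. RpL34b had a signal of 439.2 (rank 488), also 123 bp upstream, with rank 507 in replicate 1 and 327 in replicate 2, and as at RpL32 the summit of replicate 3 was nearer to a neighbour. RpL23A, which lies at the exit of the ribosome's peptide tunnel, had a signal of 405.0 (rank 566) and its summit 76 bp upstream (chr3L:1668624-1668808). It had rank 780 in replicate 1, 426 in replicate 2 and 563 in replicate 3, and no other protein-coding TSS lay within 1 kb of it (the nearest, of RabX5, was 1378 bp away).

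Further large-subunit peaks shared with all 3 replicates included those at RpL17 (signal 248.9), RpL34a (236.1) and RpL26 (225.1). RpL17 had its summit 30 bp upstream, with rank 1682 in replicate 1, 1169 in replicate 2 and 1019 in replicate 3, and its next gene was 3276 bp away. RpL26 had its summit (18898918) in an intron, 43 bp downstream of its nearest annotated TSS. It was downstream of the nearest TSS in all 3 replicates (28, 83 and 56 bp in replicates 1, 2 and 3). The TSS that most RpL26 transcripts share is another one (18899104), and the conservative summit lies upstream of it. RpL34a was assigned a thresholded peak in replicate 2 alone, at rank 1415.

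The ribosomal stalk recruits translation factors and is built on RpLP0, with the acidic proteins RpLP1 and RpLP2 attached to it. RpLP0 was bound, with a signal of 285.3 and its summit 28 bp upstream of its nearest annotated TSS (rank 2177 in replicate 1, 632 in replicate 2 and 790 in replicate 3). RpLP1 and RpLP2 were unbound and in no thresholded replicate list. In a similar way RpL11 and RpL5, which enter the ribosome together with the 5S rRNA, were split. RpL11 had a signal of 189.4 and was listed in replicates 1 and 2, while RpL5 was unbound and was listed in replicate 1. RpLP1, RpLP2, RpL11 and RpL5 were named for their roles after their values were seen.

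Of the small subunit, RpS27 had the strongest peak, with a signal of 472.0 (rank 432, chr3R:25247446-25247611) and its summit 18 bp upstream. It was found in every replicate, with rank 509 in replicate 1, 367 in replicate 2 and 623 in replicate 3. RpS25 followed with 322.6 (rank 830), its summit 68 bp upstream, and rank 2322 in replicate 1, 546 in replicate 2 and 658 in replicate 3. RpS25 thus stood low in the list of replicate 1 and high in the other two. RpS28b had a signal of 311.2 (rank 887), 32 bp upstream, with rank 1415 in replicate 1, 803 in replicate 2 and 727 in replicate 3.

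RpS27A, made as a fusion with ubiquitin, had a signal of 227.1 with its summit 65 bp upstream. RpS21 had 213.4 (12 bp upstream) and RpS4 had 202.8 (52 bp upstream). All of these had a peak in all 3 thresholded replicate lists. Peaks shared with all 3 replicates were thus found at 9 large-subunit and 6 small-subunit members.

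For 15 of the 39 bound members the strongest peak had a summit within 250 bp in all 3 thresholded replicate lists, as it had for 1116 of the 13945 protein-coding genes. As a share of genes with a promoter peak this was 38.5% of bound members, against 55.3% of 1152 other genes, a difference that was not tested. It was shared with 2 replicates for 18 members, with 1 replicate for 4 and with none for 2 (RpS29 and RpL12). By replicate, 33 were shared with replicate 1, 31 with replicate 2 and 21 with replicate 3. Requiring both other replicates in place of all 3 left 17 members without replicate 1, 19 without replicate 2 and 27 without replicate 3, against 8.24%, 8.70% and 10.8% of all protein-coding genes under the same rule. In the longer ranked lists, which also hold peaks under the authors' threshold, 33 of the 39 bound members had an assigned peak in all 3 replicates. Bound members were chosen by their peaks, so this share has no like share over all genes. Of all 92 members, 61 (66.3%) had such peaks, against 36.0% of all protein-coding genes.

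**Figure D2:**
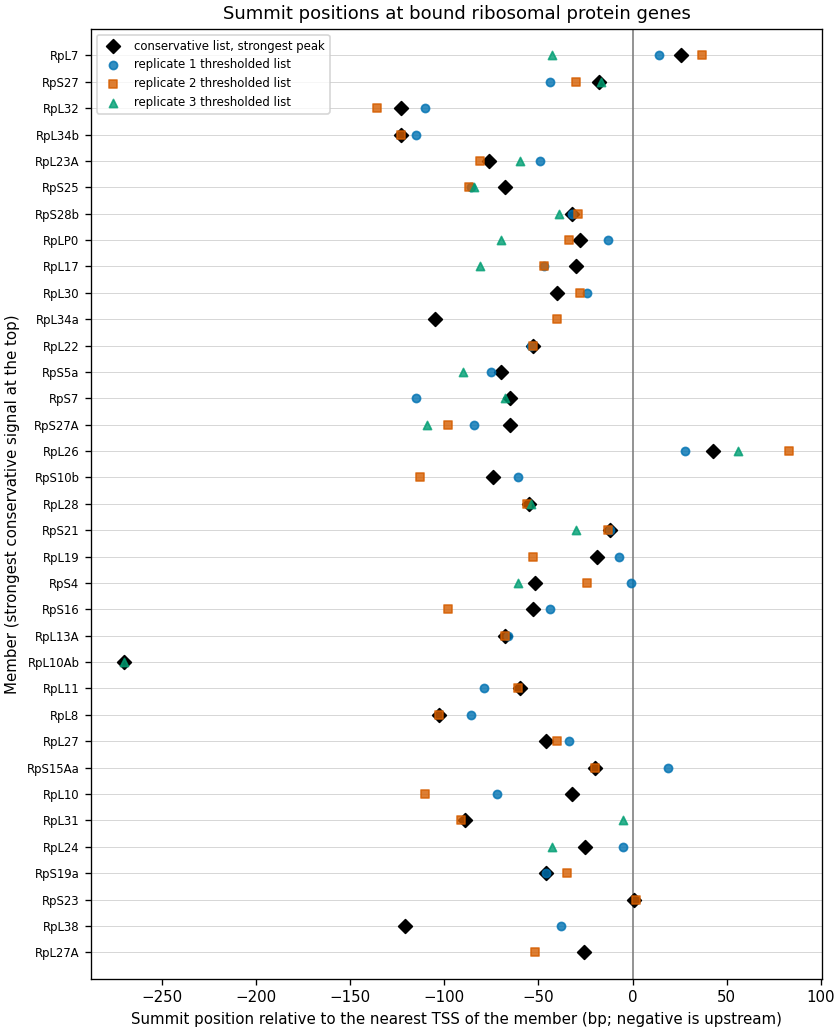
Summit position relative to the nearest TSS of each bound member that also had an assigned peak in a thresholded replicate list, in bp with negative values upstream, for the strongest conservative peak (diamonds) and for the strongest assigned peak in the thresholded list of each replicate (coloured points). Members run from the strongest conservative signal (RpL7, top) to the weakest (RpL27A, bottom), and most points of 1 member lie close together on the upstream side.

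The weakest bound members were RpL13, RpL12 (signal 104.1), RpL27A (127.3), RpL38 (128.4), RpS23 (139.8) and RpS29 (143.6). RpL27A and RpS23 were shared with replicate 2 and RpL38 with replicate 1, while RpL12 and RpS29 were shared with none. RpL13 had a signal of 10.7 (80 bp downstream), shared with replicate 1 through a summit that was assigned to another gene. No thresholded replicate list assigned a peak to RpL13. Beside RpL13, on the other strand, starts Dref, the gene of the DRE-binding factor. A stronger peak with a signal of 119.0 lay 107 bp from the TSS of RpL13 and was assigned to Dref. Removing peaks that have a stronger summit within 1 peak width (384 bp) left 38 bound members.

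A further 6 weak peaks were second peaks of a bound member, at RpL10 (signal 46.9), RpL10Ab (24.1), RpL31 (22.7), RpS29 (20.2), RpS28b (15.8) and RpL22 (13.6). Of the 45 member peaks, 39 were exactly 384 bp wide with the summit at the middle, so their edges were set by the authors' procedure. The summit is the only position these peaks give.

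Member peaks were of middling strength in the list. None was among the strongest 10% of conservative peaks, 5 were among the strongest 20% and 26 among the strongest 50%. Their median rank was 1626, against 1620 for the promoter peaks of other genes (n = 45 and 1433). In median rank over all peaks, member peaks were thus close to other promoter peaks. With only the strongest peak of each gene, the median rank was 1518 for members and 1378 for other genes with a promoter peak (n = 39 and 1152). The difference was not tested.

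The summits kept a narrow position. The strongest peak of 33 of the 39 bound members (84.6%) lay 0 to 150 bp upstream of the nearest annotated TSS. By the same measure 45.4% of the strongest promoter peaks of 1152 other genes did. The nearest TSS is not always the one that most transcripts share. Among the 33, the summits of RpLP0, RpL12 and RpS16 lay downstream of that shared TSS. Over all 45 member peaks the median position was 52 bp upstream (quartiles 74 and 20 bp upstream, range 270 bp upstream to 168 bp downstream). Promoter peaks of other genes had their median 128 bp upstream. The farthest strongest summit was at RpL10Ab, 270 bp upstream. An assigned peak in all 3 thresholded replicate lists was found for 11 of 92 members (12.0%), against 7.57% of all protein-coding genes. For these 11, the summits of the 3 replicates lay within a range of 3 bp (RpS25) to 80 bp (RpL7), with a median range of 32 bp.

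**Figure D3:**
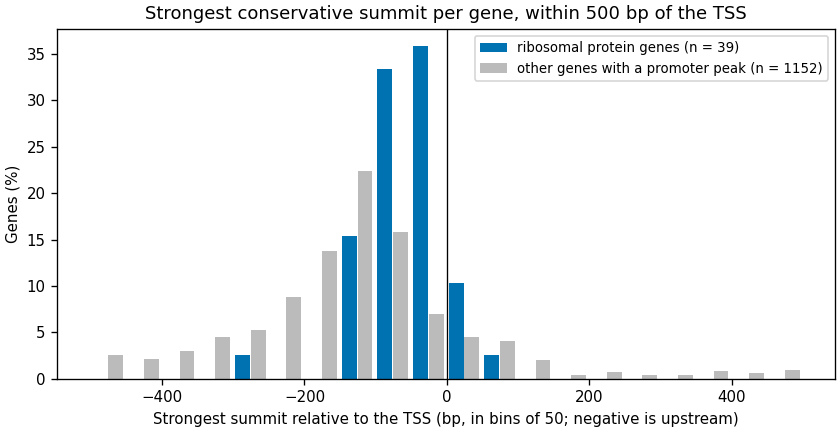
Position of the strongest conservative summit per gene, within 500 bp of its nearest annotated TSS, in bins of 50 bp, as percent of genes, for bound ribosomal protein genes (blue, n = 39) and other genes with a promoter peak (grey, n = 1152). The blue bars gather in the 150 bp upstream of the TSS, while the grey bars spread further upstream.

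All peaks assigned to members lay within 500 bp of the TSS, against 45.1% of the peaks assigned to other genes. Members are short genes (median length 1483 bp for bound and 1146 bp for unbound members, against 2166 bp for all protein-coding genes) and often have close neighbours. Of the strongest summits, 30 were intergenic, 8 in an untranslated exon, 1 in an intron (RpL26) and 0 in coding sequence. Another protein-coding gene started within 500 bp of the summit at 18 bound members, among them RpL7 (Ripalpha, 56 bp), RpS27A (Ip259, 65 bp), RpL34a (Trmt61, 124 bp), RpS27 (Nup37, 126 bp) and RpL34b (CG8132, 146 bp). At 15 bound members the next gene was over 1 kb away, among them RpL23A, RpL17 and RpS4 (Syx13, 2730 bp). For the 18, the peak cannot be given to 1 of the neighbours by position alone.

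The same proximity hid some members. RpL14 (signal 339.6), RpS20 (275.7), RpL41 (219.3) and RpL23 (177.4) had a conservative summit within 500 bp of their TSS that was nearer to Nelf-E, CG17271, NaCP60E and CG13531. Their TSSs lay 78, 195, 110 and 316 bp from these summits. With them, 43 of 92 members (46.7%) had a conservative summit within 500 bp, against 12.9% of all protein-coding genes by the same rule.

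Among the 53 unbound members, 10 had an assigned peak in at least 1 thresholded replicate list and none had one in all 3. RpL14 and RpL23 were listed in replicates 1 and 3, and RpL41 in replicates 1 and 2. RpL5 and RpL7A were listed in replicate 1, and RpL37-1, RpS12, RpS3A, RpL15 and RpS20 in replicate 2. Counting these, 49 of 92 members (53.3%) were bound or listed in some replicate, against 18.4% of all protein-coding genes.

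The ranked list that holds the conservative peaks had a peak for 72 of 92 members (78.3%), against 42.0% of all protein-coding genes. Of the 72, 33 were unbound members, with the peak within 500 bp of the TSS for 29. The strongest there were RpL37-1 (signal 138.6), RpS12 (136.0), RpS3A (130.0), RpL15 (127.3) and RpS26 (126.7). RpS12 is required in the fly for cells with a Minute mutation to be outcompeted by their neighbours. The authors' score, which measures how well a peak's rank repeats between lists, was 497 for RpL37-1, 169 for RpS12, 654 for RpS3A, 185 for RpL15 and 650 for RpS26, all under the lowest score of 830 in the thresholded lists. The bound member nearest to that limit was RpL31 with 899, and the nearest unbound ones were RpL5 with 820, RpL36A with 741 and RpL4 with 708. Signals of these unbound members lay above that of RpL12, the weakest bound member apart from RpL13, except for RpL36A (78.2). Signal alone thus did not set which members were in the conservative list.

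The ranked lists gave an assigned peak to 77 members in replicate 1, 76 in replicate 2 and 72 in replicate 3, against 59.9%, 50.9% and 58.1% of all protein-coding genes. In the ranked list of each replicate, a member's strongest peak was placed as a percent of the list's length, where 0 is the strongest. The medians were 8.87% for bound and 33.3% for unbound members in replicate 1, 7.81% and 25.1% in replicate 2, and 8.10% and 21.5% in replicate 3. These lists share reads with the conservative list, so the order of the medians follows from the choice of members and is a description. Of all 92 members, 61 (66.3%) had a peak in all 3 ranked lists, against 36.0% of all protein-coding genes, and 4 had none in any (RpL7-like, RpLP0-like, RpS13 and RpS19b).

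All but RpS13 among those 4 belong to copy families, which were taken from symbols alone. A family holds members whose symbols match up to a final a or b, a hyphen and number, or -like. By this rule there were 13 copy families among the members, and in 10 of them 1 copy was bound and another was not. The bound copies were RpL7, RpL10Ab, RpL22, RpL24, RpLP0, RpS5a, RpS10b, RpS15Aa, RpS19a and RpS28b, and their unbound copies RpL7-like, RpL10Aa, RpL22-like, RpL24-like, RpLP0-like, RpS5b, RpS10a, RpS15Ab, RpS19b, RpS28a and RpS28-like. In several of these families the unbound copy is known for expression in the germ line (RpS5b in the ovary, RpL22-like in the testis, RpS10a and RpS19b in gonads), while the bound copy is the general one. RpL24-like and RpLP0-like resemble factors that assemble the large subunit in yeast. The -like members are thus copies by symbol only, and may not encode the same protein as the bound member of their family.

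RpS5a had a signal of 232.1 with its summit 70 bp upstream, and its strongest ranked peaks stood at 5.98%, 10.7% and 5.13% of the lists of replicates 1, 2 and 3. Those of RpS5b stood at 73.8%, 77.6% and 84.2%. RpS19a had a signal of 148.0 (46 bp upstream) and stood at 13.5%, 11.3% and 9.92%, while RpS19b had no peak in any ranked list. RpS10b had a signal of 221.4 and stood at 8.83%, 6.89% and 6.15%, while RpS10a had 1 ranked peak, at 96.6% in replicate 1. RpL22 had a signal of 233.6 and stood at 4.89%, 5.64% and 9.16%, against 93.0%, 46.4% and 92.8% for RpL22-like.

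In the split families the bound copy ranked above the unbound one in every replicate that ranked both, which, as above, is a description of members chosen on the same reads. In replicates 1 and 2 only RpL10Aa of its family was assigned a ranked peak (at 58.7% and 25.3%). These peaks lay 9966 and 1842 bp downstream of its TSS, away from the promoter. Replicate 1 did hold a thresholded summit within 250 bp of the conservative peak of RpL10Ab, but it was assigned to another gene. In replicate 3 RpL10Ab stood at 9.96% and RpL10Aa at 76.7%, with the peak of RpL10Aa 2463 bp downstream. RpS28b stood at 5.72%, 4.62% and 3.18%, and RpS28a at 14.7% and 35.9% in replicates 1 and 2. RpS15Aa stood at 7.55%, 9.53% and 17.0%, and RpS15Ab at 34.7% and 91.0% in replicates 1 and 3. The families without a split were RpL34a and RpL34b, both bound, and RpL37-1 with RpL37-2 and RpS14a with RpS14b, all unbound. How reads that match more than 1 place were handled is not stated, so values of near-identical neighbours such as RpS14a and RpS14b are uncertain. Of the members with a copy, 12 of 27 (44.4%) were bound, and of those without a copy, 27 of 65 (41.5%).

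**Figure D4:**
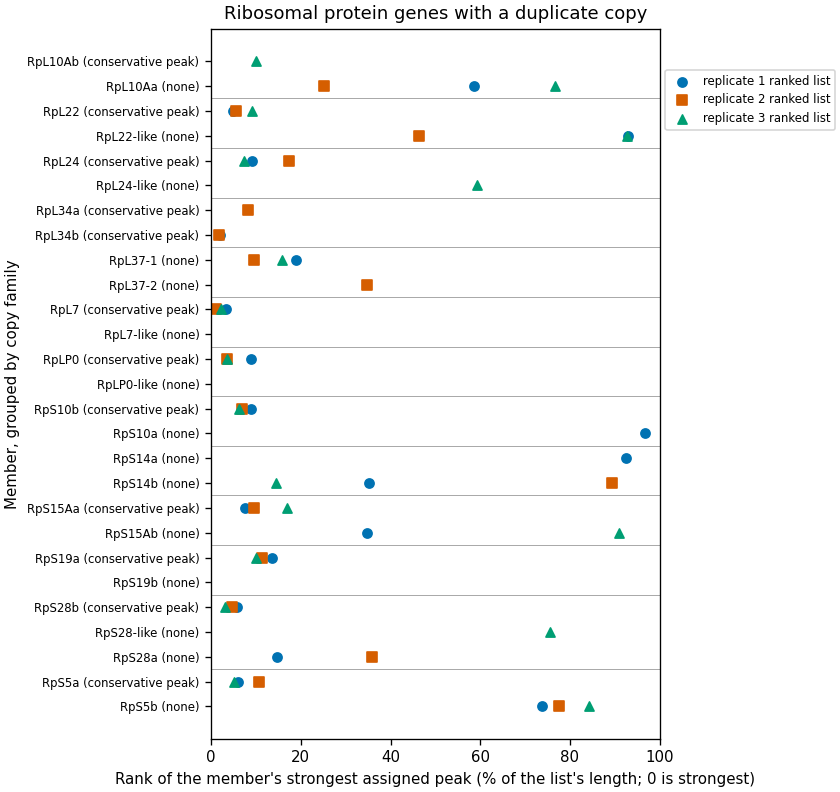
Rank of the strongest assigned peak of each member that has a copy, as percent of the length of the ranked list of each replicate (0 is the strongest), with families separated by lines. Points of bound copies lie at the left, and most unbound copies lie further right or have no point. Assigned peaks lie within 10 kb of the TSS, and a missing point means no assigned peak in that list.

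Elements known from ribosomal protein promoters were counted in bound and unbound members. In the 250 bp before to 50 bp after the TSS, the DRE word was held by 13 of 39 bound (33.3%) and 15 of 53 unbound members (28.3%), against 9.23% of all protein-coding genes. Motif 1 was held by 15.4% of bound and 13.2% of unbound members, against 7.79% of all protein-coding genes. For the E-box, the site of Myc with Max, the shares were 12.8% of bound and 9.43% of unbound members, against 4.20% of all protein-coding genes.

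A forkhead word was held by 14 of 39 bound (35.9%) and 21 of 53 unbound members (39.6%), against 45.9% of all protein-coding genes. Among the 15 bound members whose strongest peak was shared with all 3 replicates, 9 held one (60%, interval 32.3% to 83.7%). The interval for all 39 bound members was 21.2% to 52.8%.

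A run of 8 or more pyrimidines with CTTT within 20 bp of the TSS was held by 26 of 39 bound (66.7%) and 35 of 53 unbound members (66.0%), against 3.64% of all protein-coding genes and 3.80% of the other genes with a promoter peak. This form was chosen after the values were seen, because the form planned first, CTTTT starting at the annotated TSS base or the base before it, was held by 0 of 92 members (which allows a share of up to 3.93%, the upper end of the exact interval) and 0.301% of all protein-coding genes. That upper end holds for the exact planned form only and is no bound on TCT initiators. In the stretches of RpL23A and RpL27 printed above, CTTTT starts a few bases after the annotated TSS. A snoRNA gene lay inside 14 of 39 bound (35.9%) and 14 of 53 unbound members (26.4%), against 0.688% of all protein-coding genes. A TSS on the other strand within 1 kb was found for 59.0% of bound and 58.5% of unbound members, against 34.7% of all protein-coding genes. For each of these features the intervals of bound and unbound members overlapped. For the DRE the interval was 19.1% to 50.2% in bound and 16.8% to 42.4% in unbound members.

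The sequence under the summits differed from that under other promoter peaks. Within 50 bp of the summit, A and T made up 55.3% ± 10.2 of the bases at the 45 member peaks, against 68.3% ± 9.74 at 1433 promoter peaks of other genes (SD over peaks). Restricted to summits 0 to 150 bp upstream of the TSS, the means were 54.7% and 68.3% (n = 34 and 592). This range does not match position. Of the strongest promoter summits, 35.9% of members' and 6.94% of other genes' lay in the 50 bp just upstream of the TSS. In the 21 bp at the summit itself, the strongest member peaks averaged 59.3% and those of other genes 70.8%, and 20 bp downstream 50.8% and 69.3%. On average, member peaks thus had their AT-rich maximum 180 bp upstream of the summit (72.8%), while other promoter peaks had it at the summit. The whole promoters did not differ in this way, with a median of 61.7% A and T in bound members, 64.3% in unbound members and 62.0% in all protein-coding genes.

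**Figure D5:**
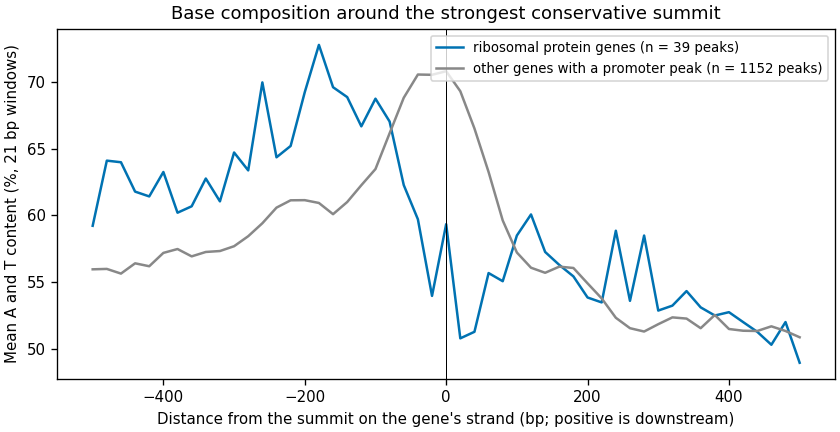
Mean A and T content in 21 bp windows around the strongest conservative summit, oriented on the gene's strand, for bound ribosomal protein genes (blue, n = 39 peaks) and other genes with a promoter peak (grey, n = 1152 peaks). The grey line has its maximum of 70.8% at the summit, where the blue line is at 59.3% and falls to 50.8% at 20 bp downstream.

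Words under the summits were counted in the same way. A forkhead word, the kind of site that forkhead proteins bind, lay within 50 bp of 6 of 45 member summits (13.3%, interval 5.05% to 26.8%), against 26.0% of other promoter summits (interval 23.7% to 28.3%). The intervals overlap, and the member share moved with the replicates required. Among summits shared with both other replicates it was 26.3% without replicate 1 (5 of 19), 23.8% without replicate 2 (5 of 21) and 20% without replicate 3 (6 of 30), against 29.2%, 29.1% and 26.9% of other promoter summits. The word TGTTTAC alone was found at 0 of 45 member summits, which allows a share of up to 7.87%, against 2.72% of the others. The DRE word lay at 7 of 45 member summits (15.6%, interval 6.49% to 29.5%), against 1.81% of the others, and Motif 1 and the E-box at 6.67% each, against 0.768% each. These words depend on base composition, and a match is not evidence of a bound site.

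Other gene lists of protein synthesis and growth stood near the background of 15.5% for an assigned peak within 10 kb. A peak was assigned to 9 of 73 mitochondrial ribosomal protein genes (12.3%), 5 of 48 proteasome subunit genes (10.4%), 9 of 51 translation factor genes (17.6%) and 3 of 24 ribosome assembly genes (12.5%). The last list is mixed: it also holds RNA polymerase I genes, among them the bound Polr1D, and the ribosomal protein gene sta, which was not bound. Among translation factors, the strongest peaks were at eEF1gamma (signal 1178, 5727 bp upstream), eIF6 (916.0, 115 bp upstream), which keeps the subunits apart, and eIF3c (325.3, 14 bp upstream). All bound genes of the first 3 lists had a peak within 500 bp of the TSS, as had 1 of the 3 ribosome assembly genes. For such promoter peaks the share of all protein-coding genes was 9.34%, so translation factors (17.6%) stood above it. The bound share of the ribosomal protein genes (42.4%) was higher than that of each of these 4 lists, as the plot of shares by gene list shows. None of these differences was tested. As a check of the locus of the tagged factor, croc itself had a conservative peak 3345 bp upstream of its TSS, with a signal of 113.0.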

How the data were processed

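Binding of croc-eGFP was measured by ChIP-seq in 3 biological replicates. The deposited files are peak lists on dm6, per the listings deposited beside each sample, made with the irreproducible discovery rate (IDR); the sources used here do not give the aligner, the peak caller or their versions, nor how replicates were combined in the conservative list. The deposited signal is the authors' value per peak, and each deposited score is a scaled form of the peak's IDR. Summits were peak start plus the deposited summit offset. Peaks on 6 arms were assigned to the nearest protein-coding TSS (BDGP6.54) within 10 kb; summits within 250 bp were shared. No peak passed the end of its arm in the Release 6 genome, and 233 of 233 coding sequences of members started with ATG there. Python 3.11.15, pandas 2.3.3, numpy 2.4.6 and scipy 1.17.1 were used, and the assignment was tested on simulated peaks. Depth is unknown, as no read counts were used. Members and lists were chosen with earlier results of these data known. Members were named for a peak shared with all 3 replicates, for the 5 strongest peaks, for 2 peaks, for a split copy family, or as the 5 unbound members ranked highest; others are marked or belong to counts that list them. The values of 1 member are not reported here by name. Alternatives were other distances, overlaps, lists, peak subsets and windows, and leaving out each replicate.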

Additional observations from a re-analysis of the deposited data

How the results depend on the processing

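The 11 results were recomputed under 46 alternatives, of which 41 stayed within 1.5 times a count or within the spread of a value, and under 30 settings that left out a replicate, of which 19 did. Leaving out a replicate kept only conservative peaks shared with both other replicates. It gave 17 to 27 bound members (11 to 17 large, 6 to 10 small; 17 to 27 at the promoter), 17 to 27 shared members in place of 15, and a median rank of 1233 to 1457 in place of 1626. With the strongest 50% of peaks, 26 members were bound (9.48% of all protein-coding genes), 16 of them large. Ranked replicate lists gave 38 members shared with all 3 replicates and a mean of 75 members per list (83.7%, 82.6% and 78.3% of members in replicates 1, 2 and 3, against 59.9%, 50.9% and 58.1% of all protein-coding genes), since these lists hold peaks under the threshold. The forkhead share at member summits, 13.3%, was 24.4% within 100 bp, 20% to 26.3% with a replicate left out and 0 with TGTTTAC alone. Within 100 bp the share of other promoter summits was 41.5%, so it rose there as well. The initiator share was 0 as planned and 66.3% as the pyrimidine run, chosen after seeing the data. Outside the conservative list, the series' 3 further thresholded lists gave 38, 32 and 41 members with a peak, against 13.2%, 14.2% and 14.1% of genes. No paired analysis was possible because the series has 1 group. Unknown depth and the lack of a measured background limit all counts, and peaks at shared promoters cannot be given to 1 gene.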

Other observations

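Of 6 regulators known for ribosomal protein promoters, 3 had an assigned conservative peak, against 15.5% of all protein-coding genes. Only 1 of the 3 had it within 500 bp of the TSS, and a list of 6 genes is too short to compare. Mnt, which pairs with Max and opposes Myc, had a signal of 332.7 at 6195 bp downstream of its TSS, shared with all 3 replicates. Myc, the growth regulator, had 199.3 at 8760 bp downstream, shared with 2 replicates. Dref had 119.0 at 23 bp downstream, on the promoter it shares with RpL13. Among mitochondrial ribosomal protein genes, which are separate from the members, the third strongest peak was at mRpL23 (signal 1511, 79 bp downstream), and mRpL32 (279.9) and mRpS7 (205.5) also had peaks shared with all 3 replicates.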
